A study of Homo sapiens with 6 samples.

Results

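Small nucleolar RNAs (snoRNAs) and small Cajal body-specific RNAs (scaRNAs) were compared between A549 and H23, 2 established human lung cancer cell lines. The genes described are those with a SNORA, SNORD or SCARNA name and a number whose expected count, an estimate of sequenced fragments per gene, summed to at least 20 over the 6 libraries. This rule kept 81 of the 552 rows with such names, out of 27968 genes in all. They comprised 54 of 181 SNORA, 12 of 342 SNORD and 15 of 29 SCARNA genes. Of the 471 genes left out, 343 had no count in any library and 128 had counts that summed to under 20. The members were thus chosen by their summed counts, and 99.2% of the members' 97510 summed counts came from A549, so the level of the members and the direction of their difference are given as a description.

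A549 was grown in DMEM and H23 in RPMI medium, each with 10% fetal bovine serum and without treatment, and RNA was taken at about 80% confluence. There were 3 libraries of each line, and the labels do not say whether these came from separate cultures, so p-values measure the spread between these samples, which may be technical. The labels give 1 preparation for all 6 libraries, a stranded total RNA kit with removal of ribosomal RNA, and cell line and medium cannot be told apart. Library totals ran between 23399562 and 25348083 counts in A549 and between 29395795 and 42421642 in H23. H23 replicate 1 stood apart from its partners. Over 11699 genes with at least 1 CPM in every library, the median absolute log2 difference was 0.34 and 0.33 between it and H23 replicates 2 and 3, 0.083 between those 2, and 0.061 to 0.072 between A549 libraries. A level that reflects fewer cells with an RNA and one that reflects less of that RNA per cell cannot be told apart in bulk RNA. The epithelial keratins KRT8 and KRT18 averaged 2159 and 2223 CPM (counts scaled to the library total) in A549, against 1510 and 2169 CPM in H23. The lung lineage factor NKX2-1 was at 0 in all A549 libraries and averaged 2.98 CPM in H23. Of the other lung lineage markers, SFTPB averaged 0.176 CPM in A549 and 0.0247 CPM in H23, and NAPSA 0.830 CPM in A549 and 1.08 CPM in H23. SFTPC averaged 0.0285 CPM in A549, from replicate 3 alone, and was at 0 in H23. Of the other epithelial markers, KRT19 averaged 61.0 CPM in A549 and 4.74 CPM in H23, CDH1 14.2 CPM in A549 and 39.1 CPM in H23, and EPCAM 3.57 CPM in A549 and 6.89 CPM in H23. CD3E, PECAM1, VWF, COL1A2 and DCN were at 0 in A549, and CD3E, DCN and PTPRC were at 0 in H23. In H23, VWF averaged 0.657 CPM, COL1A2 0.0314 CPM and PECAM1 0.00786 CPM, and in A549 PTPRC averaged 0.0136 CPM. Above 0 in both lines were the fibroblast markers COL1A1 (A549 mean 8.13 CPM, H23 mean 22.6 CPM), LUM (A549 mean 0.506 CPM, H23 mean 1.27 CPM) and PDGFRB (A549 mean 0.220 CPM, H23 mean 0.365 CPM). So were the macrophage marker CD68 (A549 mean 5.75 CPM, H23 mean 7.38 CPM), and the endothelial marker CDH5 (A549 mean 0.162 CPM, H23 mean 0.258 CPM).

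The classes differ in what they guide. Box C/D snoRNAs, named SNORD, bind fibrillarin and direct 2′-O-methylation of ribosomal RNA, and H/ACA snoRNAs, named SNORA, bind dyskerin and direct its pseudouridylation. The scaRNAs gather in Cajal bodies and direct the same modifications of spliceosomal snRNAs. Most are cut from introns of host genes, and as mature RNAs they carry no poly(A) tail. A few, among them SNORA73B and SNORD22, take part in cleavage of the ribosomal RNA precursor in the nucleolus.

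The sequences below were chosen because the results turn on them: abundant members of each class, SCARNA12, which stood apart in H23, and the exception SNORD22. They were read from GENCODE 29 transcripts on GRCh38, since the deposited tables hold no coordinates and were made on hg19, and each is the transcribed strand written 5′ to 3′. Capitals mark TGATGA, the core of the C box, within the first 25 bases, CTGA, the D box, within the last 15 bases, or ACA within the last 12 bases. SNORA73B lies at chr1:28508559-28508762 within SNHG3, SNORA48 at chr17:7574713-7574847 and SNORD10 at chr17:7576811-7576952, both within EIF4A1. SNORD17 lies at chr20:17962710-17962946 within SNX5, SNORD22 at chr11:62852910-62853035 within SNHG1, and SCARNA12 at chr12:6967337-6967606 within PHB2.
SNORA73B: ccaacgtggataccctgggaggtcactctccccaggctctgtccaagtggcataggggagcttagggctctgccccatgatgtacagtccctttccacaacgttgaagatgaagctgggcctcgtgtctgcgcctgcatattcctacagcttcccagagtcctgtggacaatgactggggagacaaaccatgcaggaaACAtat
SNORA48: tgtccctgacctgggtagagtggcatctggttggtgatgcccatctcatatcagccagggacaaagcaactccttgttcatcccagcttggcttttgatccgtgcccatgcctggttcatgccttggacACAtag
SNORD17: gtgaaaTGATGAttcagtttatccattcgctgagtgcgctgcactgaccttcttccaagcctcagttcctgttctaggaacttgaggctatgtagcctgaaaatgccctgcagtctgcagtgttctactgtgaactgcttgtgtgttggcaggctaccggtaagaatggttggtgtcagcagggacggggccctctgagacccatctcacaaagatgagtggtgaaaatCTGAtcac
SNORD10: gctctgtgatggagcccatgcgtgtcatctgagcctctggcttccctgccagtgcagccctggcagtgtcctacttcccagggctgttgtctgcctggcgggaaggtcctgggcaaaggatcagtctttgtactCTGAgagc
SNORD22: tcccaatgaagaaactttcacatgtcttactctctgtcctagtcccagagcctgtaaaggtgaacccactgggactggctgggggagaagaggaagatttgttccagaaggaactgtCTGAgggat
SCARNA12: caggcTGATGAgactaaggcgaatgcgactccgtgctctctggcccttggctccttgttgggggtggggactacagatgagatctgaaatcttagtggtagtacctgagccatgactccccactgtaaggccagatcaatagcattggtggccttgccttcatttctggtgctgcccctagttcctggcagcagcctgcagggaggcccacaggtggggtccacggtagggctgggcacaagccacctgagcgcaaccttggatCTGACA

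The members' sequences carried the marks of their classes. ACA within the last 12 bases was found in 48 of 49 SNORA members with a GENCODE transcript, in 0 of 7 SNORD members and in 5 of 10 SCARNA members. TGATGA within the first 25 bases was found in 0 of 49 SNORA, 4 of 7 SNORD and 5 of 10 SCARNA members, and CTGA within the last 15 bases in 3, 6 and 6 of them. Among 25915 other GENCODE transcripts of 100 to 450 bases the shares were 15.7% for ACA, 0.737% for TGATGA and 7.05% for CTGA. The search covered the RNA strand alone, and the windows of CTGA and ACA overlap. The other 15 members had no GENCODE match and were placed by the RefSeq gene table.

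Counts of the 81 genes were plentiful in A549 libraries and scarce in H23 libraries. They summed to 34076, 31595 and 31069 counts in the A549 replicates, against 260, 233 and 277 in the H23 replicates. This was 0.132% ± 0.0074 of all counts in A549 and 0.000714% ± 0.0000726 in H23 (SD, n = 3 each), a ratio of 185, or 183 without H23 replicate 1. No A549 library overlapped an H23 library. The exact two-sided permutation test over the libraries gave p = 0.1, the smallest that 3 against 3 allows. The members entered through their A549 counts, so this p is no support for a direction. All 552 rows, taken without regard to their counts, held 0.133% ± 0.0076 of counts in A549 and 0.000791% ± 0.000085 in H23 (SD, n = 3 each). Each A549 library held at least 1 count for all 81 genes, whereas the H23 libraries held counts for 33, 27 and 45. Between 70 and 76 members reached 10 counts in an A549 library, and 4 or 5 did in an H23 library. The 471 genes left out by the rule summed to 6.63 ± 2.11 CPM in A549 and 0.767 ± 0.143 CPM in H23 (SD, n = 3 each).

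Choosing genes by H23 alone gave another view of the same counts. With the minimum of 20 summed counts applied to the H23 libraries, 7 of the 552 genes passed, against 79 when it was applied to the A549 libraries. The 7 were SNORA73B, SCARNA7, SNORD17, SCARNA12, SCARNA10, SNORA70 and SNORD22. Their ratios of A549 over H23 ran between 1.26 and 1174, with a median of 178.

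The ratio was computed for each class. SNORA members took 0.0509% ± 0.0086 of counts in A549 and 0.000153% ± 0.000028 in H23, a ratio of 333. SNORD members took 0.0244% ± 0.0033 in A549 and 0.000101% ± 0.000026 in H23, a ratio of 241. SCARNA members took 0.0570% ± 0.0009 in A549 and 0.00046% ± 0.000041 in H23, a ratio of 123.9 (SD, n = 3 each for the 3 classes). Of the members' own counts, SCARNA genes held 43.1% ± 1.79 of member counts in A549 and 64.5% ± 3.58 in H23, and SNORA genes 38.3% ± 4.67 in A549 and 21.3% ± 1.73 in H23 (SD, n = 3 each; exact permutation p = 0.1 for each, the smallest possible). SNORD genes held 18.5% ± 3.23 in A549 and 14.2% ± 3.44 in H23 (SD, n = 3 each), and here the libraries overlapped (exact permutation p = 0.2). SCARNA12 alone held 5.47% of the member counts in A549 and 46.6% in H23. Without SCARNA12, left out after its share of the H23 counts was seen, the SCARNA ratio was 389 and that of all members 327. The part of the remaining member counts held by scaRNAs was then larger in A549 than in H23, so their larger part in H23 rested on SCARNA12. The members entered through their A549 counts, so the permutation p-values of these parts are no support for a direction.

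**Figure D1:**
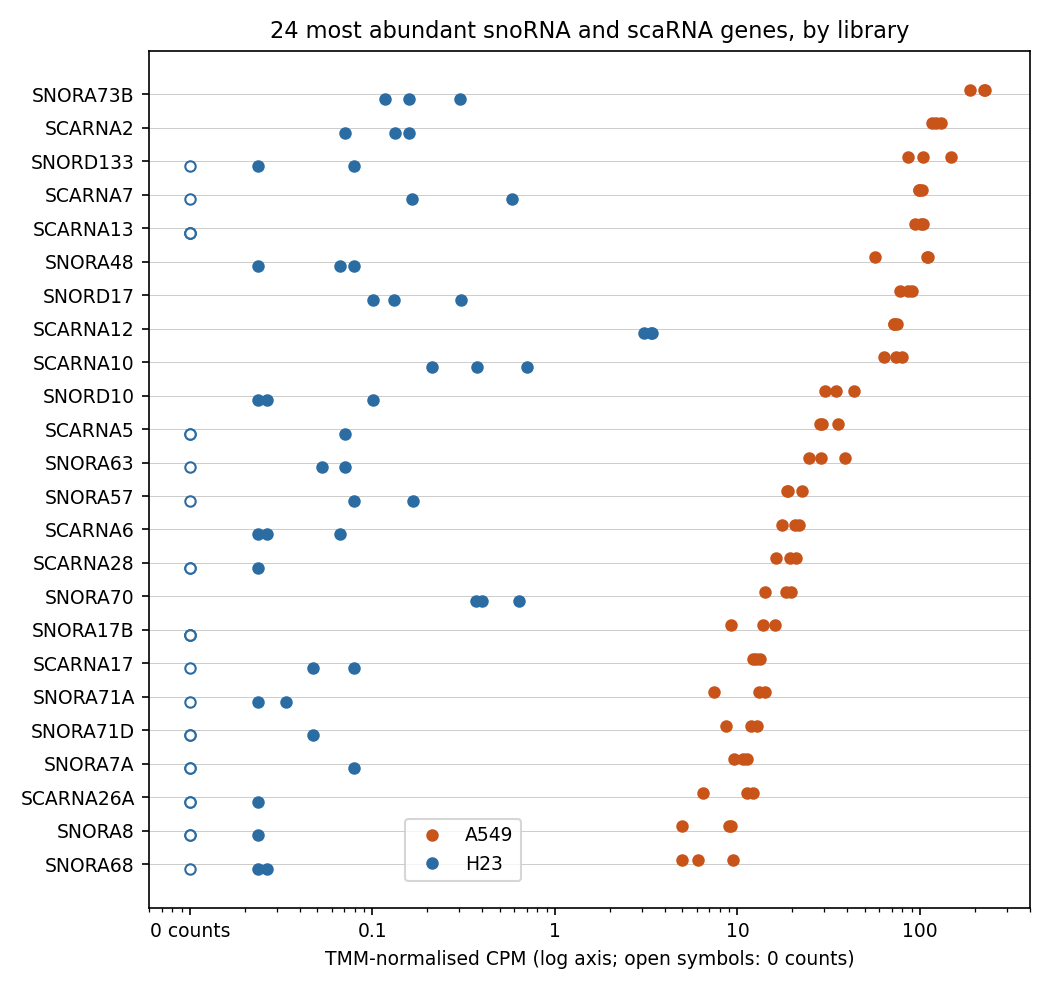
TMM-normalised CPM (log axis) of the 24 most abundant members, 1 point per library, with A549 above H23 in each row and open symbols for 0 counts. In every row the 3 A549 points lie to the right of the 3 H23 points, and SCARNA12 has the highest H23 points, between 3.08 and 3.41 CPM.

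Among H/ACA snoRNAs, SNORA73B, which takes part in processing of the small-subunit rRNA, was the most abundant member in each A549 library. It had 228, 189 and 223 CPM (scaled by TMM, as for all single genes here) in the A549 replicates, against 0.159, 0.301 and 0.118 CPM in the H23 replicates. With scaled counts pooled over the libraries of each line, as for all single-gene ratios here, A549 stood 1174 times higher. The log2 fold was 10.16 ± 0.25 (SE; edgeR quasi-likelihood adjusted p = 2.8e-07). It made up between 14.96% and 16.7% of the member counts in the A549 libraries. SNORA48, which guides pseudouridylation of the large-subunit rRNA, had 109.3, 57.1 and 111 CPM in the A549 replicates, against 0.0793, 0.0668 and 0.0235 CPM in the H23 replicates. The 6 H23 counts behind those values limit the ratio of 1686 to its order of size. A549 replicate 2 was about 0.518 of the mean of its partners for this gene.

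SNORA70, encoded within the ribosomal protein gene RPL10, kept more of its level in H23 than most H/ACA members. It had 18.4, 14.2 and 19.7 CPM in the A549 replicates, against 0.370, 0.635 and 0.400 CPM in the H23 replicates, a ratio of 38.3. Its counts of 14, 19 and 17 made it the H/ACA member with the most counts in every H23 library. SNORA17B, by contrast, had 388, 232 and 320 counts in the A549 replicates, against 0, 0 and 0.47 in the H23 replicates, where the expected count was rounded to 0. Set against a floor of 3 counts over the 3 H23 libraries, it was at least 478-fold higher in A549. SNORA74A and SNORA84 had no count in H23 and were at least 223-fold and 190-fold higher in A549. Over all 54 SNORA members the mean level ran between 0.250 and 213 CPM in A549, with a median of 1.44 CPM. In H23 it ran between 0 and 0.468 CPM, with a median of 0.0078 CPM, under the level of 3 counts in any library.

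Among box C/D snoRNAs, SNORD133, SNORD17 and SNORD10 were the most abundant. SNORD133 had 104, 147 and 86.2 CPM in the A549 replicates, against 0.0793, 0 and 0.0235 CPM in the H23 replicates, where 4 counts were found in all. SNORD17, a guide of large-subunit rRNA methylation, had 85.8, 90.7 and 77.7 CPM in the A549 replicates, against 0.132, 0.1002 and 0.306 CPM in the H23 replicates. Its ratio was 446, with a log2 fold of 8.78 ± 0.28 (SE; edgeR adjusted p = 6.4e-07). SNORD10 had 43.8, 30.3 and 34.7 CPM in the A549 replicates, against 0.0264, 0.1002 and 0.0235 CPM in the H23 replicates. SNORD97 had 375 counts in A549 and none in H23, and was at least 191-fold higher in A549. Over the 12 SNORD members the mean level had a median of 1.60 CPM in A549 and 0.042 CPM in H23.

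SNORD22, a box C/D snoRNA known for its part in processing of the small-subunit rRNA, was the exception among the 81. It had 12, 3 and 4 counts in the A549 replicates, against 10, 2 and 11 in the H23 replicates. The libraries of both lines overlapped, and the ratio of pooled counts, scaled by library size, was 1.26. It was not tested after the filter on low counts. With every gene tested, its log2 fold was 0.38 ± 0.68 (SE; edgeR adjusted p = 0.64). Of the 16 genes listed beforehand for precursor cleavage, SNORD22, SNORA73B and SNORD10 had rows, and the other 13 were not analysed here. A place on the list does not show that a gene acts in cleavage, which was not tested for SNORD10.

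SNORD141A and SNORD141B, which had equal counts in every library, came next in closeness of the 2 lines among the tested members. Each had 40.2, 14.98 and 31.96 counts in the A549 replicates, against 0, 11.7 and 6.61 in the H23 replicates. Each log2 fold was 2.75 ± 0.80 (SE; edgeR adjusted p = 0.016). The call was lost without A549 replicate 1 (adjusted p = 0.061), without A549 replicate 3 (0.051) and without H23 replicate 3 (0.052). At 105 bases both are listed at 0 TPM (the deposited level per effective length) in every library, so neither was called in the fits on TPM. SNORD15B, within RPS3, had 2.04, 1.56 and 2.37 CPM in the A549 replicates, against 0.132, 0.134 and 0.118 CPM in the H23 replicates. Its ratio was 15.6, and each A549 library was above each H23 library.

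The scaRNAs had the highest median level of the 3 classes in A549, at 18.9 CPM over the 15 members, against 0.039 CPM in H23. SCARNA2, a long box C/D scaRNA, had 122, 116.2 and 131 CPM in the A549 replicates, against 0.159, 0.134 and 0.0706 CPM in the H23 replicates. SCARNA13, within the host gene SNHG10, had 103, 94.3 and 101 CPM in the A549 replicates and no count in any H23 replicate. It was at least 3659-fold higher in A549. SCARNA7 had 98.7, 98.4 and 103 CPM in the A549 replicates, against 0.581, 0 and 0.165 CPM in the H23 replicates, so that 22 of its 29 H23 counts came from replicate 1. SCARNA10 had 74.1, 79.6 and 63.7 CPM in the A549 replicates, against 0.211, 0.702 and 0.377 CPM in the H23 replicates. SCARNA28 had 1360 counts in A549 and 1 in H23, a ratio of 2074 with a 95% exact counting interval of 372 to 81991. Intervals and floors cover counting error only.

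SCARNA12 was the member with the highest level in H23. It had 74.9, 72.2 and 72.4 CPM in the A549 replicates, against 3.36, 3.41 and 3.08 CPM in the H23 replicates. Both lines had little spread, and the ratio was 22.4, with a log2 fold of 4.48 ± 0.10 (SE; edgeR adjusted p = 1.9e-07). It held 5.47% ± 0.226 of the member counts in A549 and 46.6% ± 2.67 in H23 (SD, n = 3 each). In GENCODE, exon models of PHB2, which codes for prohibitin 2, cover 88.5% of it. PHB2 itself was lower in A549, with a mean of 264 CPM against 608 CPM in H23, and a log2 fold of -1.20 ± 0.07 (SE; edgeR adjusted p = 7.5e-06). SCARNA9, the other scaRNA that kept over 4% of its A549 level in H23, had 5.15, 3.55 and 3.28 CPM in the A549 replicates, against 0.211, 0.167 and 0.118 CPM in the H23 replicates.

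In the fit across all genes, 15426 passed the filter on low counts. Of these, 77.2% were called at an adjusted p under 0.05, 37.6% as higher in A549 and 39.6% as higher in H23. Of the 81 members, 69 were tested, all 69 with a higher level in A549 and 0 with a higher level in H23. DESeq2 gave the same counts, and no tested member had a log2 fold below 0. All 69 had at least 10 counts in every A549 library and only 2, SCARNA12 and SNORA70, had them in every H23 library, so the tested members entered through A549 and their count is no support for a direction. Of the 69, 66 were called at least 16 times higher in A549, which held for 5.17% of all tested genes, and the other 3 were SNORD15B, SNORD141A and SNORD141B. The libraries did not overlap, with A549 higher, for 80 of the 81 members, beside 40.7% of all tested genes, and with H23 higher for none of the members, beside 41.4% of all tested genes. The median log2 fold of the 69 was 8.01, beside -0.03 over all genes. Without H23 replicate 1, all 73 members tested were called towards A549, beside 44.0% of 15545 genes. H23 counts summed to 0 for 29 members, to between 1 and 3 for 22, and to over 3 for 30. With those at 0 set to the floor of 3 counts, the median ratio over all 81 was 71.7.

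Scaled to the members' own summed count, the order within the class differed between the lines. This scaling moved the median log2 fold of all genes to -7.60, and a fold then says whether a member took a larger or smaller part of the class. In it 45 of the 69 tested members had a fold above 0 and 24 a fold below 0. Of the 69, 17 passed the test towards A549 and 13 towards H23. These members entered through their A549 counts, and SCARNA12 alone held 46.6% of the member counts in H23. The folds and calls are therefore a description, and the share of all genes called under this scaling is not given here. Among those that passed towards A549, SNORD133, SNORA48, SNORA73B and SCARNA2 had log2 folds of 4.03, 3.13, 2.61 and 2.44. Among those that passed towards H23, SCARNA12 had a log2 fold of -3.09 ± 0.23 (SE; edgeR adjusted p = 7.8e-10). SNORA70 was at -2.33 ± 0.32 (SE; edgeR adjusted p = 2.7e-06) and SCARNA9 at -2.97 ± 0.46 (SE; edgeR adjusted p = 1.1e-05). The other 10 towards H23 were SNORD141A, SNORD141B, SNORD15B, SNORA38, SNORA53, SNORA64, SNORA10, SNORA24, SNORA67 and SCARNA16.

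Detected genes were longer than those left out in the SNORD and SCARNA classes. Of 295 rows under 100 bases, 293 of them SNORD genes, none reached the minimum, and the highest summed count among them was 16. Members made up 3 of 40 rows of 100 to under 125 bases, 52 of 172 rows of 125 to under 150 bases, 8 of 19 rows of 150 to under 200 bases and 18 of 26 rows of 200 bases or more. All 10 SCARNA rows of at least 200 bases were members. The median length of SNORD members was 147 bases, against 78.5 bases for the SNORD genes left out. That of SCARNA members was 275 bases, against 134.5 bases for the scaRNA genes left out, while SNORA genes differed little, at 135 bases for members and 133 bases for the rest. The 121 rows of imprinted SNORD families gave no member, and all but 12 of them were at 0 in every library. At the edge of the rule, SNORA61, SNORA77B and SNORA18 summed to 20.5, 22 and 23 counts, and SNORA50A, SNORA44 and SNORA37, left out, to 19, 18.2 and 18.

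**Figure D2:**
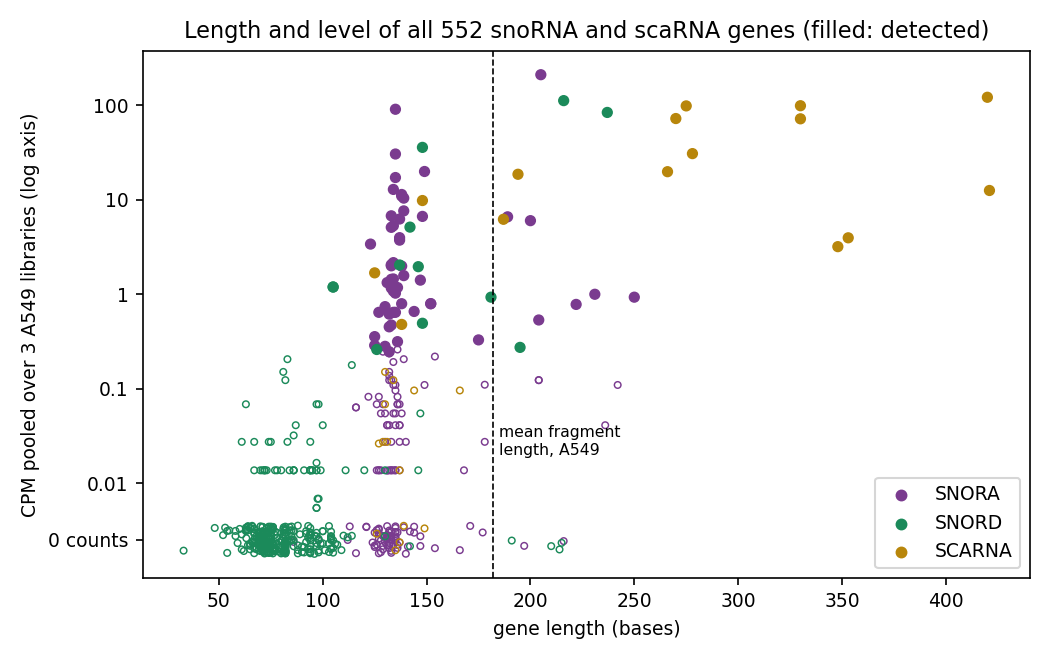
Gene length in bases against pooled CPM over the 3 A549 libraries (log axis) for all 552 snoRNA and scaRNA genes, coloured by class, filled where detected by the rule and spread at the bottom where there were 0 counts. SNORD genes under 100 bases crowd at and near 0, and the dashed line marks the A549 mean fragment length of 182 bases.

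Many members are shorter than the sequenced fragments. The typical fragment, taken as the median gap between length and effective length over genes above 3000 bases, was 178, 189 and 180 bases in the A549 replicates, against 174, 168 and 173 bases in the H23 replicates. For RNAs this short the effective length nears 0 and TPM is inflated. SNORA48, at 135 bases, was listed at 22359, 18131 and 24957 TPM in the A549 replicates, above SNORA73B, at 205 bases, with 5650, 5557 and 5959 TPM, although SNORA48 had fewer counts. In all, members took 8.90% ± 0.101 of TPM in A549 and 0.0650% ± 0.0091 in H23 (SD, n = 3 each), far above their share of counts. On CPM per 100 bases of full length, 9 of the 10 most abundant members by CPM were again among the first 10. SNORA73B led with 104 CPM per 100 bases in A549, ahead of SNORA48 with 68.5, SNORD133 with 52.1 and SCARNA13 with 36.2.

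A549 replicate 2, the library with the longest fragments, had less of the short members than its partners. This was noticed after the values were seen. Among 48 members with at least 100 summed A549 counts, all 31 under 150 bases were lower in replicate 2 than in the mean of replicates 1 and 3, with a median ratio of 0.687 and a range of 0.394 to 0.950. The 14 members of 200 bases or more had a median ratio of 0.985, and 8 of them were below 1. Summed CPM of the short set was 388, 245 and 352 in A549 replicates 1, 2 and 3, and that of the long set was 968, 970 and 930. Spearman's rho between length and the ratio was 0.73 over the 48 members and 0.44 over all 81, as a description, since members share the libraries. SNORD133, at 216 bases, was highest in replicate 2, with a ratio of 1.55. The part of fragment length in the difference between the lines was not tested.

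**Figure D3:**
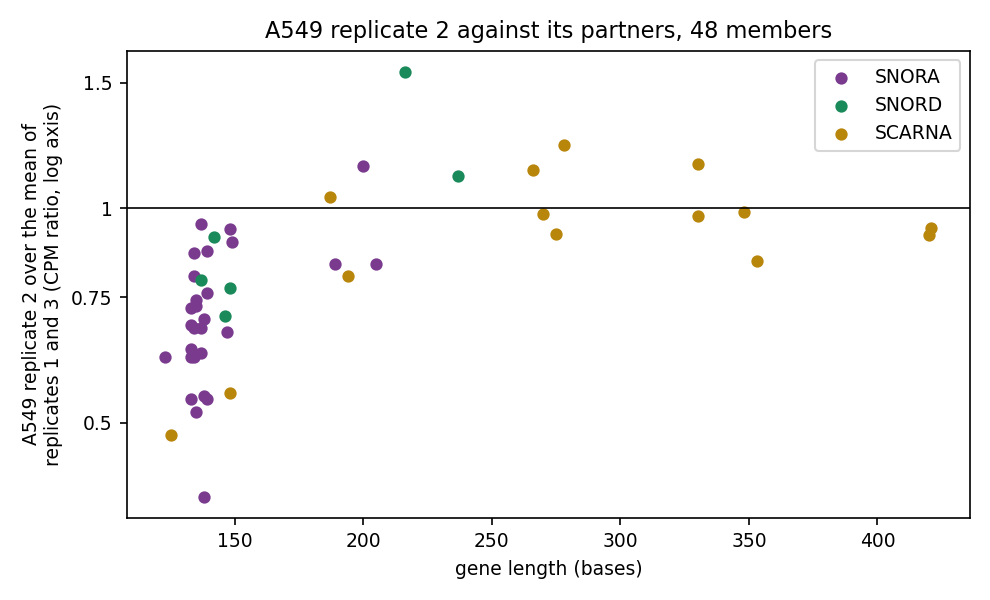
Ratio of A549 replicate 2 to the mean of A549 replicates 1 and 3 (CPM, log axis) against gene length in bases for 48 members with at least 100 A549 counts. The 31 points under 150 bases lie below 1, between 0.394 and 0.950, while longer members scatter around 1.

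Host genes were called in both directions, at shares near those of all genes. For 78 members the enclosing gene was tested, giving 64 distinct host genes. Of these, 23 passed the test towards A549, 30 towards H23 and 11 in neither direction, or 35.9% towards A549 and 46.9% towards H23, beside 37.6% and 39.6% of all genes. Without H23 replicate 1 these counts were 27, 31 and 6, or 42.2% and 48.4%, beside 44.0% and 44.6% of all genes. The median host log2 fold was -0.24, and the range was -2.76 for PRRC2A, which encloses SNORA38, to 5.95 for SNHG25, which encloses SNORA50C. In 32 pairs the host was higher in H23 and the member higher in A549, and in 24 pairs both were higher in A549. Every tested member was called towards A549, after entering through its A549 counts, so these pair counts only restate the calls of the hosts. The member's log2 ratio was above the host's log2 fold in all 78 pairs, and rho between them was 0.049, as a description over pairs that share libraries and some hosts. SNHG3, host of SNORA73B, averaged 42.7 CPM in A549 and 76.2 CPM in H23, with a log2 fold of -0.84 ± 0.15 (SE; edgeR adjusted p = 0.0016). EIF4A1, a translation initiation helicase that encloses SNORA48, SNORD10 and SNORA67, averaged 1666 CPM in A549 and 2153 CPM in H23. NCAPD2, a condensin subunit that encloses SCARNA10, had a log2 fold of -1.56 ± 0.13 (SE; edgeR adjusted p = 4.4e-05). A listed set of 61 host genes, all tested, had 20 that passed towards A549, 26 towards H23 and 15 in neither direction, with a median log2 fold of -0.13. These are 32.8% and 42.6% of the set, again near the shares of all genes.

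**Figure D4:**
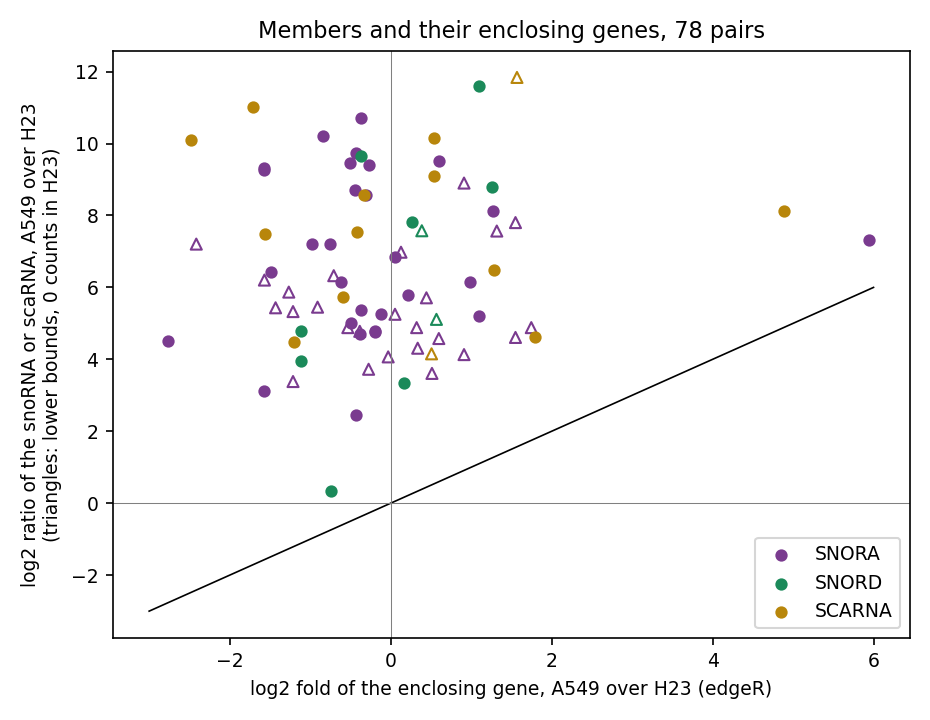
The log2 ratio of each member, A549 over H23, against the edgeR log2 fold of its enclosing gene for 78 pairs, with triangles for lower bounds where H23 had 0 counts and a line of equality. All 78 points lie above the line, and hosts fall on both sides of 0, between -2.76 and 5.95.

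Reads of a host transcript can fall on a snoRNA where the annotation has a host exon across it. Exons of all annotated transcripts of a host were joined here, so a covered member need not lie in an exon of the main spliced form. Exon models of the host in GENCODE covered at least 50% of 37 members, which held 575 of the H23 counts, and under 50% of the other 44, which held 195. SCARNA12 alone supplied most of the 575, and without it the other covered members held 215. The H23 level, with those at 0 set to the floor, had a median of 2.40% of the A549 level in the 37 and 1.25% in the 44. SNORA70, SNORA48, SNORD10 and SNORA17B were fully covered and SCARNA12 by 88.5%, whereas SNORA73B, SNORD17 and SCARNA13 were not covered. The part of host reads in the H23 counts was not tested.

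Members of 1 family and 1 host could differ widely. SNORA17A and SNORA17B lie in the same host gene, SNHG7. SNORA17B had 388, 232 and 320 counts in the A549 replicates, and SNORA17A had 15.6, 7.09 and 11.8, with under 1 count in H23 for either. Both have fractional expected counts, as when reads are shared between rows, and exon models of SNHG7 cover both fully, so these counts are uncertain. SNORA7A and SNORA7B are 98.6% identical, and their 258, 240 and 262 against 43.3, 32.6 and 39.1 counts in the A549 replicates are uncertain, since reads could be split between them. SNORA59A and SNORA59B have 1 sequence and equal counts. The SNORA71 genes in SNHG17, 82.8% to 90.3% identical, ran between 23 summed A549 counts for SNORA71B and 831 for SNORA71A.

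Other RNAs without poly(A) tails showed the same direction. RMRP, the RNA of RNase MRP, averaged 10169 ± 772 CPM in A549 and 0.264 ± 0.231 CPM in H23, and RPPH1, the RNA of RNase P, 10942 ± 522 CPM in A549 and 0.262 ± 0.278 CPM in H23 (SD, n = 3 each). Their log2 folds were 15.17 ± 0.42 and 15.32 ± 0.52 (SE; edgeR adjusted p = 4.4e-07 and 8.6e-07). RN7SL3, a signal recognition particle RNA, averaged 1497 CPM in A549 and 0.627 CPM in H23, and TERC, the telomerase RNA, 69.0 CPM in A549 and 0.0167 CPM in H23, where it had 2 counts. Of the 22 rows on the list, 5 were tested. Of these, 4 (80%) had higher levels in A549, beside 37.6% of all genes, and RN7SL832P was not called. Among 74 replication-dependent histone genes, whose mRNAs end in a stem-loop, 62 were tested. Of these, 57 (91.9%) were higher in A549, 4 (6.45%) were higher in H23 and 1 was not called, beside 37.6% and 39.6% of all genes. The median log2 fold of the 62 was 9.57. The summed level of the 74 was 11812 ± 63.5 CPM in A549 and 167 ± 29.2 CPM in H23 (SD, n = 3 each). HIST1H3C had between 111 and 118 CPM in the A549 libraries and no count in H23, and HIST1H4B averaged 264 CPM in A549 and 0.0088 CPM in H23. HIST1H2BG, HIST1H2BH, HIST1H3G and HIST1H3D were higher in H23, at levels below 1 CPM in both lines. RNA selection and cell line cannot be told apart in these libraries, and the labels name the same kit for both.

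**Figure D5:**
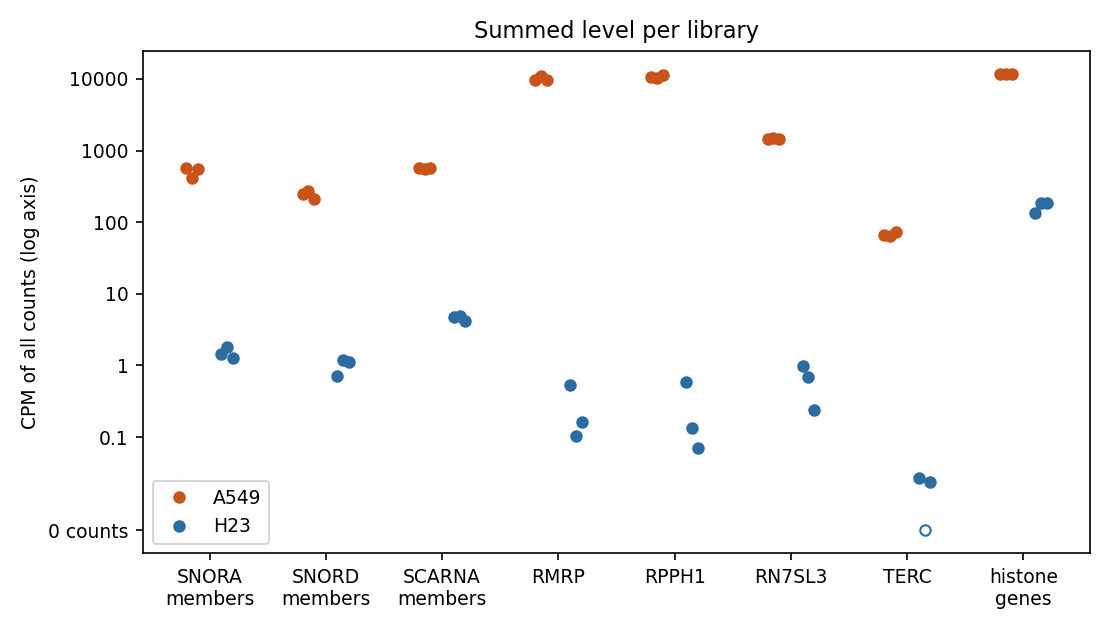
CPM of all counts (log axis) per library for the 3 classes of members, 4 other RNAs without poly(A) tails and the summed histone genes, with A549 left of H23 and an open symbol for 0 counts. Every A549 point lies above every H23 point of its group, and RMRP and RPPH1 show wider gaps than the members do.

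The members' share of short-gene counts depended on which short genes were counted. Members under 200 bases held 27.2% ± 4.10 of the counts in all genes under 200 bases in A549 and 27.96% ± 12.3 in H23 (SD, n = 3 each), a ratio of 0.971 with libraries that overlapped (exact permutation p = 0.9), which does not show the shares to be alike. The 5.8S ribosomal RNA rows held between 66.9% and 74.6% of those counts in A549 and between 30.8% and 74.8% in H23. Without the 5.8S rows, left out after their share was seen, members held 95.9%, 96.7% and 96.1% of the short-gene counts in the A549 replicates, against 55.8%, 53.9% and 57.5% in the H23 replicates. The libraries then did not overlap, and the ratio was 1.73 (exact permutation p = 0.1, the smallest possible). Since the members entered through their A549 counts, this p is no support for a direction. The 5.8S rows had 1343, 834 and 846 CPM in the A549 replicates, against 9.53, 2.37 and 2.69 CPM in the H23 replicates.

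The core proteins of the snoRNA particles were tested in the same fit. Of 8 core proteins tested, none passed the test towards A549, 4 passed towards H23 and 4 in neither direction, beside 37.6% and 39.6% of all genes. At an unadjusted p under 0.05 and with DESeq2 none passed towards A549 either. Without H23 replicate 1 the count towards A549 was 3, for NOP58, NOP10 and NOP56, or 37.5% beside 44.0% of all genes. NOP58 had 158, 155 and 144 CPM in the A549 replicates, against 181, 62.0 and 58.0 CPM in the H23 replicates, so the count turns on H23 replicate 1. GAR1, an H/ACA core protein, averaged 9.72 ± 0.34 CPM in A549 and 41.8 ± 12.3 CPM in H23 (SD, n = 3 each), with a log2 fold of -2.11 ± 0.21 (SE; edgeR adjusted p = 9.6e-05). SNU13, which binds the C/D motif, averaged 71.6 CPM in A549 and 198 CPM in H23. DKC1, the pseudouridine synthase dyskerin, averaged 209 CPM in A549 and 393 CPM in H23, and FBL, the methyltransferase fibrillarin, 252 CPM in A549 and 383 CPM in H23. NOP56, NOP58, NHP2 and NOP10 were not called over all 6 libraries, with log2 folds of 0.09, 0.60, -0.20 and 0.08. Among 18 assembly and processing factors, 5 passed towards A549, 7 towards H23 and 6 in neither direction, with a median log2 fold of 0.00. Without H23 replicate 1 the counts were 9, 7 and 2, or 50% towards A549 and 38.9% towards H23, beside 44.0% and 44.6% of all genes. RPAP3, a cochaperone of snoRNP assembly, rose in A549 by a log2 fold of 1.43 ± 0.51 (SE; edgeR adjusted p = 0.035). It had 77.2, 80.5 and 71.3 CPM in the A549 replicates, against 54.5, 15.97 and 14.4 CPM in the H23 replicates, and the adjusted p was between 0.067 and 0.097 without any 1 library other than H23 replicate 1. The exosome nuclease DIS3, at 1.19, lost its call in the same 5 ways, and the poly(A)-specific ribonuclease PARN, at 0.68, kept it in each. NAF1, an H/ACA assembly factor, fell in A549 by 1.42 on the log2 scale, the helicase RUVBL1 by 1.14 and the nuclear exosome nuclease EXOSC10 by 1.01. WRAP53, which takes scaRNAs to Cajal bodies, had a log2 fold of -0.32 (edgeR adjusted p = 0.031), and its adjusted p was between 0.091 and 0.114 without any 1 library other than H23 replicate 1. TCOF1, at -0.41, missed the threshold without A549 replicate 2 (edgeR adjusted p = 0.059).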

How the data were processed

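The labels give stranded total RNA libraries for both cell lines. Per the submitters' processing notes, STAR 2.6.0c, RSEM 1.3.0 and the hg19 build were used. The deposited gene tables give expected counts, lengths and effective lengths per gene and the authors' TPM, and the deposited isoform tables were not used. Expected counts were rounded and fitted with edgeR 4.0.16 (TMM factors, filterByExpr, robust quasi-likelihood F test, Benjamini-Hochberg adjustment over 15426 genes, threshold 0.05). DESeq2 1.42.0 and limma 3.58.1 on log2(TPM + 1) and log2(TPM + 0.1) of the deposited TPM were alternatives. The edgeR script was tested on simulated data. Summed shares were compared by exact permutation over libraries.

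Members and gene lists were chosen with earlier results of these data known. Genes with values in full are the 10 with the highest mean CPM, up to 8 with the largest fold in each direction, the 4 most abundant scaRNAs, detected genes of the cleavage list and the 3 on either side of the minimum. SNORA70, SNORA7A, SNORA7B, SNORA17A, SNORA59A, SNORA59B, SNORA71A, SNORA71B, SNORD15B, SNORD141A, SNORD141B and SCARNA9 were added after their values were seen, as were host genes. Where H23 had no count, a floor of 3 counts over the group gives a lower bound, and for 1 to 3 counts a 95% exact interval. A floor of 3 counts is 0.118 to 0.128 CPM in A549 libraries and 0.0707 to 0.102 CPM in H23 libraries. All 6 libraries differed by more than sampling noise. Placement, host exons and sequences came from GENCODE 29 on GRCh38, where 66 members matched. The other 15 were placed by name from the RefSeq gene table, on the same assembly, without strand. Some items are not reported here.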

Additional observations from a re-analysis of the deposited data

How the results depend on the processing

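Scaled to the members' summed count, and as a description, 17 tested members were called towards A549 and 13 towards H23, with a median log2 fold of 1.83. SCARNA10 then turned to -0.12 and SCARNA12 to -3.09. The median was 7.52 with no filter on low counts, 9.81 on log2(TPM + 0.1) and 8.60 for a summed count of at least 100. Taken as a share of counts in genes under 200 bases, the ratio was 0.971, and without the 5.8S rows, a choice made after seeing the data, 1.73. Leaving out SCARNA12, chosen after seeing the data, gave 327 for all members and 389 for SCARNA. Leaving out each library in turn gave 67 to 74 calls towards A549 and 0 towards H23, a median between 7.77 and 8.07, and ratios of 177 to 196 for all members, 308 to 370 for SNORA, 211 to 266 for SNORD and 118 to 128 for SCARNA. Of 225 values of 15 named members over 15 alternatives, 222 kept direction and side of the threshold, and SCARNA7 lost its call at 1.01 under the members' scaling. The 15 were named for their abundance or large fold, so this count says nothing of members nearer the threshold. SNORD141A and SNORD141B were not called on log2(TPM + 1) or log2(TPM + 0.1), and SNORA64 was not called on log2(TPM + 0.1) (limma adjusted p = 0.051). The cause of these shifts was not tested. Same-numbered libraries of the lines did not deviate together (r of 0.025, -0.039 and 0.054), which gives no sign of pairing but cannot exclude it. With the replicate block 69 members were called with a median of 8.02, while WRAP53 lost its call (edgeR adjusted p = 0.061). In H23, whose libraries were the deeper ones, 51 members had at most 3 counts, so that their H23 levels are limits or rest on counting error.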

Other observations

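Of the 471 snoRNA and scaRNA genes under the minimum, 12 had more counts in H23 than in A549. SNORD140 had 0, 1 and 0 counts in the A549 replicates, against 4.32, 9.24 and 0 in the H23 replicates. SNORA3B had no count in A549 and 2, 3 and 2 counts in the H23 replicates. The long nuclear RNA MALAT1 had 444, 459 and 494 CPM in the A549 replicates, against 35.0, 8.24 and 4.78 CPM in the H23 replicates. NEAT1 had 261, 261 and 321 CPM in the A549 replicates, against 168, 132 and 141 CPM in the H23 replicates. H23 replicate 1 was the highest H23 library for MALAT1, NEAT1, RMRP, RPPH1 and the 5.8S ribosomal RNA rows, while its summed member level of 6.97 CPM lay between the 7.94 and 6.52 CPM of H23 replicates 2 and 3.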
